A study of Homo sapiens with 12 samples.

Results

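The PIM kinase genes and the genes of interleukin-6 (IL6) signalling to STAT3 were examined on gene expression arrays of MM.1S cells. MM.1S is an established human multiple myeloma line that is sensitive to glucocorticoids. The set was a fixed list of 10 Ensembl gene identifiers, and all 10 were found among the 17710 genes of the value table. The 3 kinases were PIM1 (ENSG00000137193_at), PIM2 (ENSG00000102096_at) and PIM3 (ENSG00000198355_at). The receptor chains and signal carriers were IL6R (ENSG00000160712_at), IL6ST (ENSG00000134352_at), JAK1 (ENSG00000162434_at) and STAT3 (ENSG00000168610_at). The feedback inhibitors were SOCS1 (ENSG00000185338_at), SOCS2 (ENSG00000120833_at) and SOCS3 (ENSG00000184557_at). Cells came from 3 independent experiments, each with 4 conditions, which gave 12 arrays. Control cells were untreated. PIM cells received the pan-PIM kinase inhibitor PIM447 at 100 nM for 24 h. Pd cells received pomalidomide at 200 nM with dexamethasone at 5 nM for 15 h. PIM-Pd cells received all 3 drugs at those doses for 10 h. Viability of the treated cells was 74 to 81% per the labels, and the time at which Control cells were collected is not given in the sources used here. Each treatment had its own duration, so drug and time cannot be told apart in any comparison between treatments. All arrays came from 1 cell line.

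PIM kinases are serine/threonine kinases that are active as soon as they are made, so the amount of their RNA and protein largely sets their activity. In myeloma, IL6 from the bone marrow binds IL6R, the complex recruits IL6ST (gp130), and JAK kinases bound to gp130 phosphorylate STAT3. STAT3 then switches on survival genes, among them PIM genes, together with SOCS genes, whose products switch the JAK kinases and receptors off again. Pomalidomide redirects the cereblon ubiquitin ligase to the transcription factors Ikaros (IKZF1) and Aiolos (IKZF3), and dexamethasone activates the glucocorticoid receptor.

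The windows around the start sites of PIM1, IL6ST and STAT3 are printed because these genes moved with Pd and PIM-Pd, PIM1 in the opposite direction to the other two. Each window is RefSeq sequence of GRCh38.p14 from 250 bases before to 50 bases after the start site, written 5′ to 3′ on the strand of the gene. Capitals mark the 5-base core of the Ikaros motif, GGGAA or its complement. The PIM1 window is chr6:37169902-37170201 on the plus strand, the IL6ST window is chr5:55994914-55995213 on the minus strand and the STAT3 window is chr17:42388393-42388692 on the minus strand.
PIM1: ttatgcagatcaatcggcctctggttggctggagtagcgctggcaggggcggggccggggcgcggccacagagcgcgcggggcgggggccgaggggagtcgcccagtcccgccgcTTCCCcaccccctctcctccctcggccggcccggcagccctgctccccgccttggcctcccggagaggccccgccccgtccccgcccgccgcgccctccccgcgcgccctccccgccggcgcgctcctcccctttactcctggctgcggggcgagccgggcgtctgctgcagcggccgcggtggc
IL6ST: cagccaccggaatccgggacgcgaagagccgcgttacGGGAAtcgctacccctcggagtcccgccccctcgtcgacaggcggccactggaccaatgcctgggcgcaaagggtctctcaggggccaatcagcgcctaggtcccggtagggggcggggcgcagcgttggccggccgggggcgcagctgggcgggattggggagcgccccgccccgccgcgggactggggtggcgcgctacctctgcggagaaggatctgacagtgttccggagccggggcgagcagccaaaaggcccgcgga
STAT3: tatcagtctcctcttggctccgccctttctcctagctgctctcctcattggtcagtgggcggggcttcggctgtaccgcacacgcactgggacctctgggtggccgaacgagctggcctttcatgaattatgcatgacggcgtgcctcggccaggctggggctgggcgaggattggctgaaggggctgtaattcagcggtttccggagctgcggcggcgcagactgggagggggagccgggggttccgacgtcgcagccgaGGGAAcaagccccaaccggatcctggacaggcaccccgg
Windows were held for 9 of the 10 genes, 12 windows in all, with SOCS2 the gene without one. The STAT palindrome TTCNNNGAA was found in none of the 12 windows, compared with 7.66% of all 35116 RefSeq windows of this length, both strands read. The glucocorticoid response element, searched as AGAACA followed after 3 bases by TGTTC, was also found in none of the 12, and it was present in 0.0114% of all windows. Its left part alone, AGAACA, was found in the IL6R window and in 14.8% of all windows. The E-box CACGTG was in none of the 12 and in 7.26% of all windows. The Ikaros core GGGAA, which lies inside the longer Ikaros motif TGGGAA, was found in 7 of the 12 windows and in 65% of all windows. The 7 were the 3 printed windows, with 1 match each, and windows of JAK1, SOCS1 and SOCS3. TGGGAA was present in 1 of the 12 windows, that of SOCS3, and in 24% of all windows. A wider STAT palindrome, TTC and GAA set 4 bases apart, was in none of the 12 and in 6.44% of all windows, and the interferon-type motif, GAAA repeated after 2 bases, was in the SOCS1 window and in 3.57% of all windows. The last pair of motifs and the Ikaros core were added after the others had been searched. All matches describe the letters in the windows alone.

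The arrays were alike in scale, with medians between 4.81 and 4.89 on the log2 scale. Of the 5 glucocorticoid targets that could be named, 3 were higher in both Pd and PIM-Pd. DDIT4, a stress-induced inhibitor of mTORC1, was 16.2-fold higher in Pd and 15.6-fold higher in PIM-Pd than in Control, and it differed by 0.02 log2 units between PIM and Control. TSC22D3 (GILZ) was 5.62-fold and 7.05-fold higher in Pd and PIM-Pd, and FKBP5 was 3.31-fold and 3.47-fold higher. KLF9 was 1.46-fold higher in PIM-Pd (limma adjusted p = 0.0278), and in Pd its log2 difference was 0.32 ± 0.15 with an adjusted p of 0.284. SGK1 had log2 differences of -0.59 ± 0.25 in Pd and -0.51 ± 0.25 in PIM-Pd, with adjusted p of 0.232 and 0.276. These targets were named from genes that the study had itself selected on the same arrays, so they are not independent evidence. Of the plasma cell markers that could be named, the mean log2 values in Control cells were 8.46 for CD38, 9.94 for SLAMF7 and 10.07 for IRF4. IRF4, a transcription factor on which myeloma cells depend, was 2.15-fold lower in Pd and 2.18-fold lower in PIM-Pd (adjusted p = 0.000192 and 0.000118). CD38 was 1.34-fold higher in PIM-Pd (adjusted p = 0.0463), and in Pd its log2 difference was 0.17 ± 0.12. SLAMF7 differed by -0.50 ± 0.16 in Pd, with an adjusted p of 0.0839, or 0.026 with the replicate number as a block, and by -0.19 ± 0.16 in PIM-Pd. Without the block, IRF4 had an adjusted p under 0.05 in both Pd and PIM-Pd, CD38 in PIM-Pd alone and SLAMF7 in neither. The part of these markers in the results below was not tested. CD3E, a T cell marker, ranged from 3.82 to 4.88 over the 12 arrays.

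The first question was which of the 10 genes moved against untreated cells under each treatment. PIM1 fell with Pd and with PIM-Pd, to about the same level. STAT3, IL6ST and SOCS2 rose with both. The other 6 genes did not pass the test under any treatment, and none of the 10 passed it with PIM447 alone. A gene passed when its adjusted p, from limma's moderated test with Benjamini-Hochberg adjustment over all 17710 genes, was under 0.05.

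In Pd against Control, 4 of the 10 genes passed, 3 of them higher and 1 lower, where 5.42% of all genes passed. The median absolute log2 change was 0.33 over the 10 genes and 0.13 over all genes. In PIM-Pd against Control, 4 of the 10 passed, 3 higher and 1 lower, against 9.44% of all genes, and the median absolute log2 change was 0.20 against 0.13. In PIM against Control, limma called 0 of the 10 genes and 0% of all genes. At an unadjusted p under 0.05 that comparison held 1 of the 10 genes, STAT3, and 1098 of all genes. The same limit held 5 of the 10 and 2983 of all genes in Pd, and 4 of the 10 and 3634 of all genes in PIM-Pd. In Pd these were the 4 that passed and PIM3. The 3 comparisons share the same Control arrays. The figures over all genes include many dim genes. Of the 10, 8 were among the 9366 genes that lay above the array median on at least 3 arrays. Of those 9366 genes, 1022 passed in Pd and 1697 in PIM-Pd, and the same 4 of the 10 passed. The 10 genes were chosen with earlier results of these data known. The arrays measured RNA from whole cultures, so fewer cells expressing a gene and less RNA per cell cannot be told apart.

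**Figure D1:**
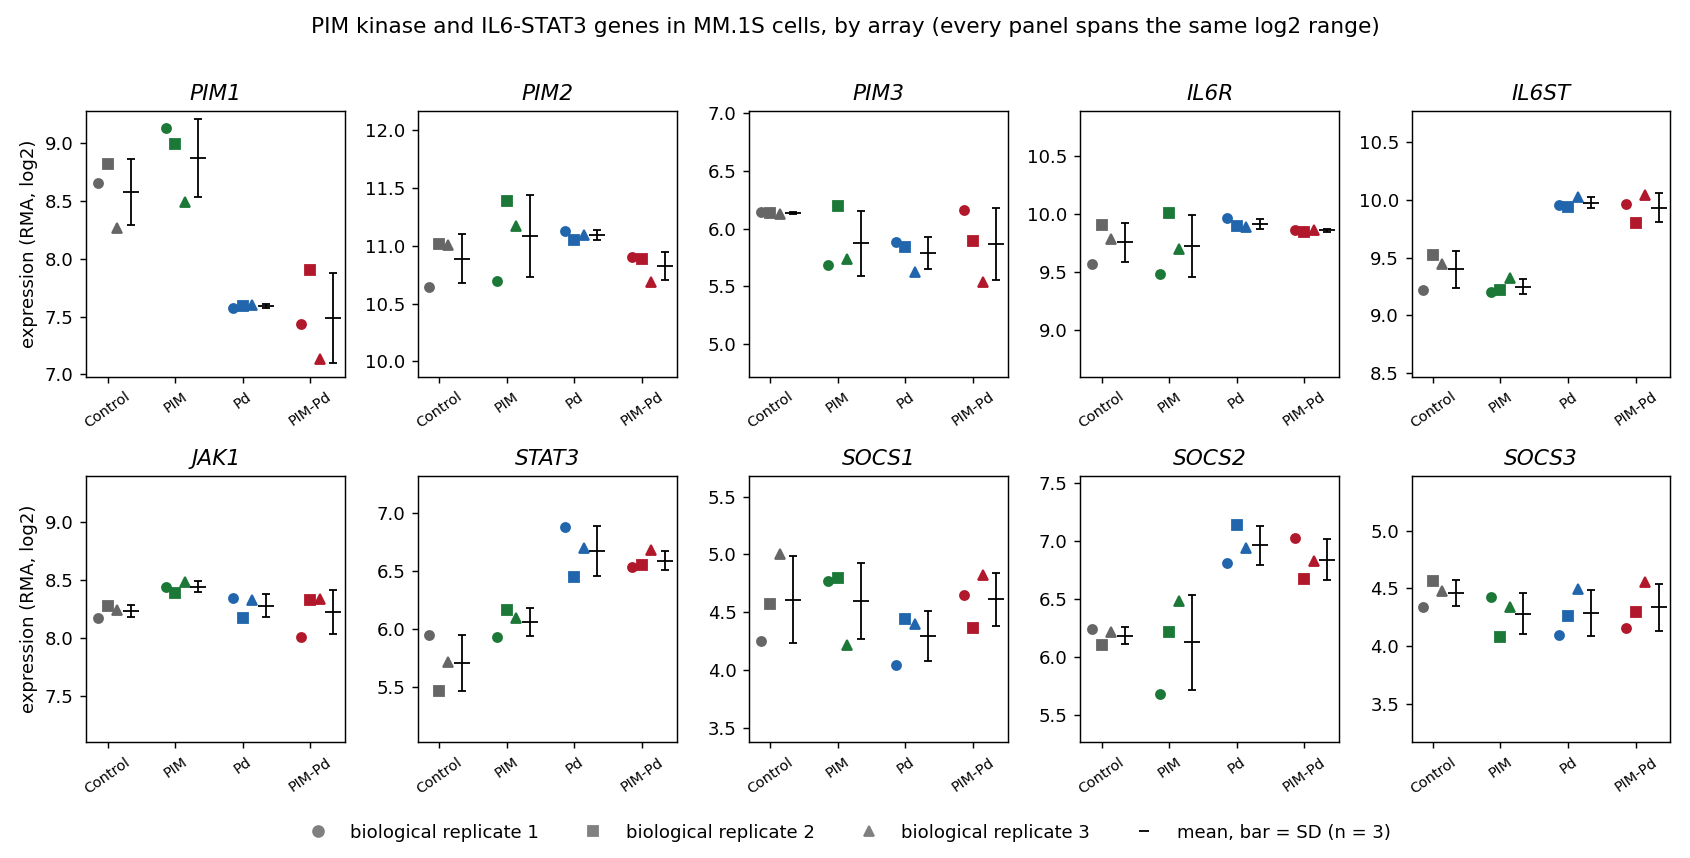
Expression of the 10 genes on the 12 arrays (y axis, RMA log2 value; x axis, treatment group), with circles, squares and triangles for biological replicates 1, 2 and 3 and a black bar for the mean and SD of 3 arrays. PIM1 lies lower in the Pd and PIM-Pd arrays than in every Control and PIM array, and STAT3, IL6ST and SOCS2 lie higher there.

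**Figure D2:**
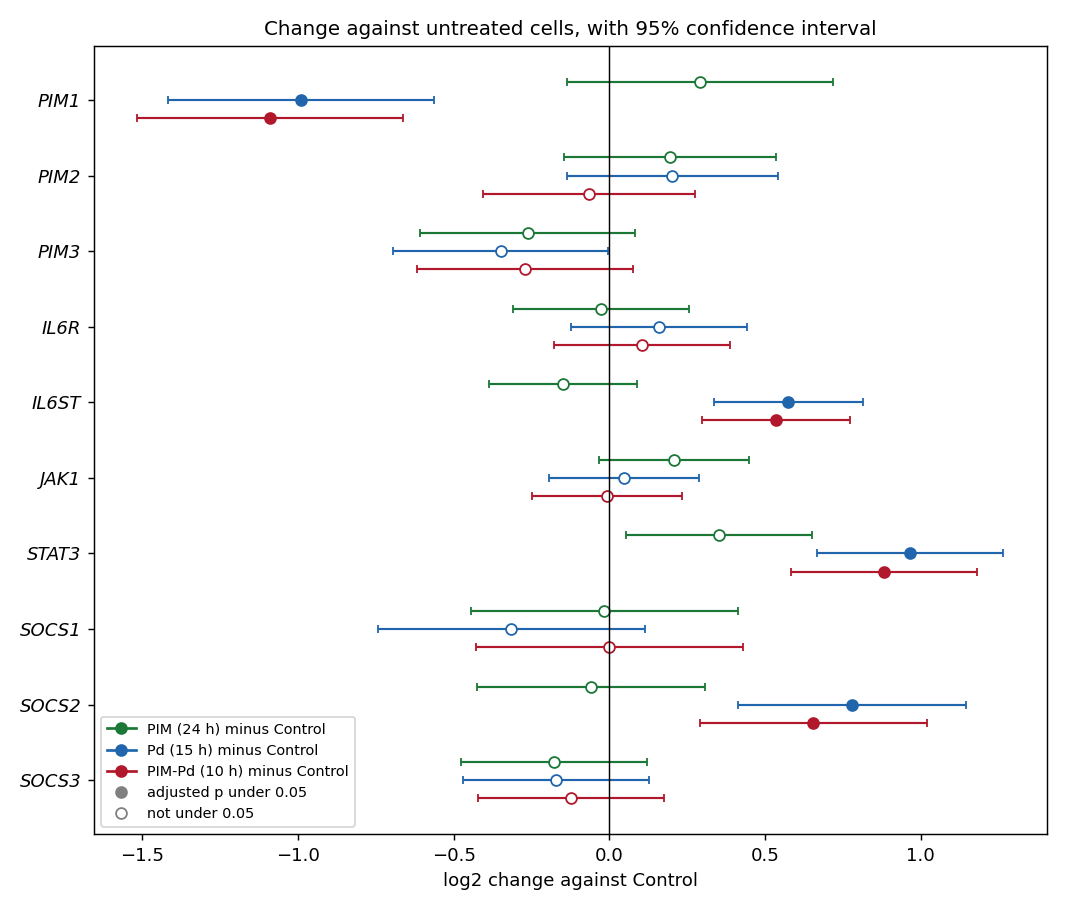
Log2 change of each gene against Control (x axis) for PIM, Pd and PIM-Pd, with 95% confidence intervals from limma; filled points had an adjusted p under 0.05. The 8 filled points belong to PIM1, STAT3, IL6ST and SOCS2 under Pd and PIM-Pd.

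Of the 3 kinase genes, PIM1 was the one that passed the test. PIM1 is a short-lived kinase and a classic target of STAT factors. Its log2 values were 8.65, 8.82 and 8.26 in Control, 9.13, 8.99 and 8.49 in PIM, 7.57, 7.59 and 7.60 in Pd, and 7.44, 7.90 and 7.13 in PIM-Pd, in replicate order. Every Pd and PIM-Pd array lay below every Control and PIM array, whereas Control and PIM overlapped. The mean was 1.99-fold lower in Pd than in Control, a log2 change of -0.99 ± 0.20 (SE, n = 3 per group) with a limma adjusted p of 0.00851. In PIM-Pd it was 2.13-fold lower, a log2 change of -1.09 ± 0.20 with an adjusted p of 0.00302. Only 1.09% of all genes had a larger absolute change in Pd and 1.08% in PIM-Pd. With PIM447 alone the log2 difference was 0.29 ± 0.20, positive in 3 of 3 replicates, and its adjusted p was 0.86. The Pd arrays spread little (SD 0.02) and the PIM-Pd arrays spread more (SD 0.39).

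PIM2 is the family member most tied to myeloma growth and is known to act on TSC2, upstream of mTORC1. Its mean log2 values were 10.89 ± 0.21 in Control, 11.09 ± 0.36 in PIM, 11.09 ± 0.04 in Pd and 10.82 ± 0.12 in PIM-Pd (SD, n = 3). All 4 groups lay within 0.27 log2 units of each other, and Control and PIM each spanned more than that. The 3 Pd arrays, at 11.05 to 11.13, lay just above the highest Control array at 11.02, with an adjusted p of 0.618. The 95% interval of the PIM-Pd change against Control ran from -0.40 to 0.28.

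PIM3, the third kinase, had log2 values of 6.14, 6.13 and 6.13 in Control, which were nearly identical. They were 5.68, 6.20 and 5.74 in PIM, 5.89, 5.84 and 5.63 in Pd, and 6.16, 5.89 and 5.54 in PIM-Pd. The Pd arrays were all lower than the Control arrays, with a log2 difference of -0.35 ± 0.16 and an adjusted p of 0.29. The PIM and PIM-Pd arrays each included 1 array above the Control range. A fall of PIM3 did not pass the test under any treatment, and a fall in Pd is not excluded.

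Of the 2 chains of the IL6 receptor, IL6ST rose and IL6R did not pass the test. IL6ST (gp130) is the signalling chain that IL6 shares with related cytokines. Its log2 values were 9.22, 9.53 and 9.44 in Control, 9.20, 9.22 and 9.32 in PIM, 9.95, 9.94 and 10.03 in Pd, and 9.96, 9.80 and 10.04 in PIM-Pd. The Pd and PIM-Pd arrays lay above all others. The mean was 1.49-fold higher in Pd (log2 change 0.58 ± 0.11, adjusted p = 0.00635) and 1.45-fold higher in PIM-Pd (0.54 ± 0.11, adjusted p = 0.00649). In PIM it was -0.15 ± 0.11 log2 units from Control, with an adjusted p of 0.877.

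IL6R, the chain that binds IL6 itself, had means of 9.75 ± 0.17 in Control, 9.73 ± 0.27 in PIM, 9.92 ± 0.04 in Pd and 9.86 ± 0.01 in PIM-Pd (SD, n = 3). The groups overlapped with Control, and the adjusted p was 0.643 in Pd and 0.774 in PIM-Pd. The upper end of the 95% interval of the change was 0.44 in Pd and 0.39 in PIM-Pd.

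JAK1 encodes the tyrosine kinase that carries most gp130 signalling. Its log2 values were 8.17, 8.28 and 8.24 in Control and 8.44, 8.39 and 8.49 in PIM, so these groups did not overlap. The log2 difference was 0.21 ± 0.11, with an adjusted p of 0.811. Pd gave 8.34, 8.17 and 8.32 and PIM-Pd gave 8.01, 8.32 and 8.34, both around the Control values.

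STAT3, the transcription factor at the end of this pathway and a target of itself, had the smallest adjusted p of the 10 genes against Control in both comparisons. Its log2 values were 5.94, 5.46 and 5.71 in Control, 5.93, 6.16 and 6.09 in PIM, 6.88, 6.45 and 6.69 in Pd, and 6.53, 6.55 and 6.68 in PIM-Pd. All Pd and PIM-Pd arrays lay above all Control and PIM arrays. The mean was 1.95-fold higher in Pd, a log2 change of 0.97 ± 0.14 with a limma adjusted p of 0.000718. It was 1.84-fold higher in PIM-Pd, a log2 change of 0.88 ± 0.14 with an adjusted p of 0.00105. In PIM the log2 difference from Control was 0.35 ± 0.14, with an unadjusted p of 0.023 and an adjusted p of 0.753. It was positive in 2 of 3 replicates, and 4.54% of all genes had a larger absolute difference in that comparison.

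Of the 3 feedback genes, SOCS2 rose, and SOCS1 and SOCS3 did not pass the test. SOCS2 is best known as an inhibitor of growth hormone signalling. Its log2 values were 6.24, 6.10 and 6.21 in Control, 5.68, 6.22 and 6.48 in PIM, 6.81, 7.15 and 6.94 in Pd, and 7.03, 6.67 and 6.83 in PIM-Pd. The Pd and PIM-Pd arrays lay above all others, and the PIM arrays spread on both sides of Control. The mean was 1.72-fold higher in Pd (log2 change 0.78 ± 0.17, adjusted p = 0.0145) and 1.58-fold higher in PIM-Pd (0.66 ± 0.17, adjusted p = 0.0249). The SOCS2 call in Pd rested on single arrays: without Control replicate 2, Pd replicate 2 or Pd replicate 3 its adjusted p was 0.0558, 0.0634 and 0.0518. In PIM-Pd it was between 0.0583 and 0.0958 when Control replicate 1, 2 or 3 or PIM-Pd replicate 1 or 3 was left out.

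SOCS1 and SOCS3 bind JAK kinases directly and are the main brakes on this pathway. Both had weak signals: SOCS1 lay below the median of its array on 11 of 12 arrays and SOCS3 on all 12. SOCS3 had means of 4.46 ± 0.11 in Control, 4.28 ± 0.18 in PIM, 4.28 ± 0.20 in Pd and 4.34 ± 0.20 in PIM-Pd (SD, n = 3), which overlapped. SOCS1 had means of 4.61 ± 0.38, 4.60 ± 0.33, 4.30 ± 0.22 and 4.61 ± 0.23 in the same order. The 95% interval of the SOCS1 change in Pd ran from -0.74 to 0.11 log2 units, and that of SOCS3 from -0.47 to 0.13, so moderate changes of either gene were not detectable with 3 arrays per group.

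The experiments were also compared within each replicate number. PIM1 was lower than in the Control array of its own number by 0.66 to 1.23 log2 units in Pd and by 0.92 to 1.22 in PIM-Pd. STAT3 was higher by 0.93 to 0.99 in Pd and by 0.59 to 1.09 in PIM-Pd. IL6ST was higher by 0.41 to 0.73 in Pd and by 0.27 to 0.74 in PIM-Pd, and SOCS2 by 0.57 to 1.04 and by 0.57 to 0.78. For these 4 genes every Pd and PIM-Pd array lay beyond all Control arrays. A single direction in 3 of 3 replicates was therefore bound to follow and is no further evidence of direction. The share of all genes whose arrays separate in this way was not computed. PIM2 and PIM3 in Pd and JAK1 in PIM also lay beyond all Control arrays, without passing the test.

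**Figure D3:**
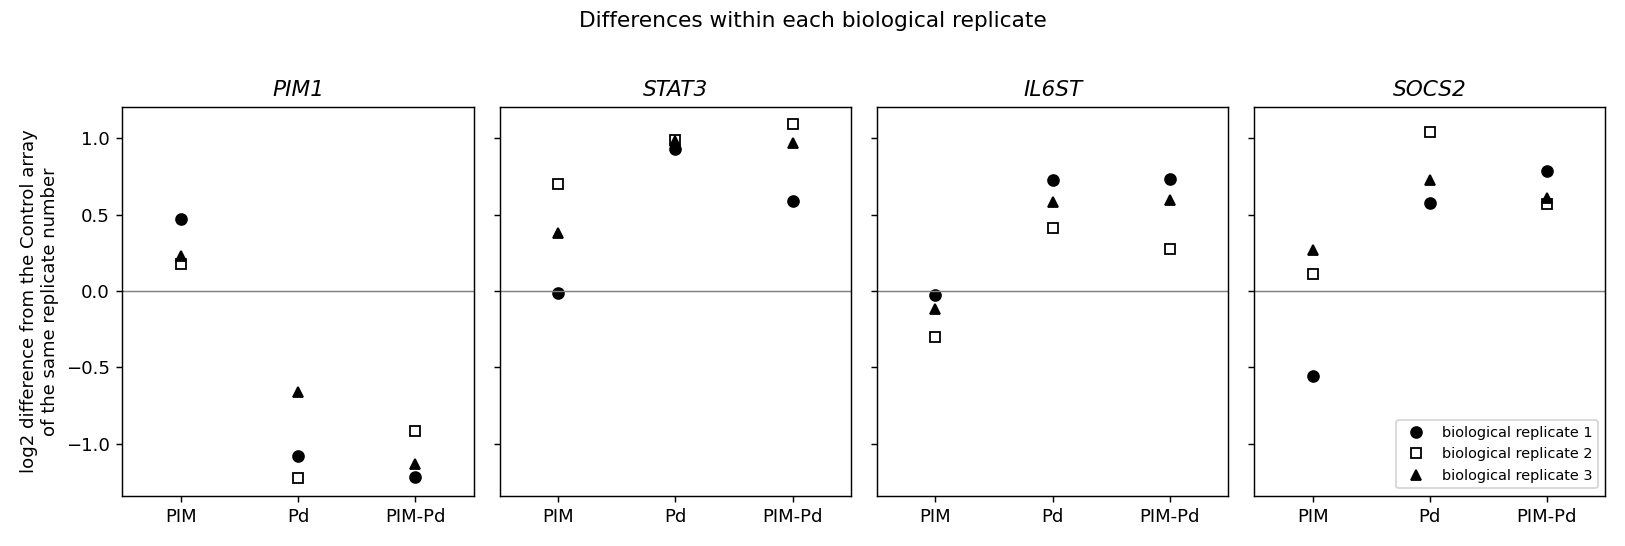
Log2 difference of PIM1, STAT3, IL6ST and SOCS2 from the Control array of the same replicate number (y axis) under PIM, Pd and PIM-Pd (x axis), 1 symbol per biological replicate and no error bars. Under Pd and PIM-Pd all PIM1 points are below 0, between -1.23 and -0.66, and all points of the other genes are above 0.

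The second question was whether adding PIM447 to Pd changed these genes. In PIM-Pd against Pd, limma called 0 of the 10 genes, where 0.0791% of all genes passed. At an unadjusted p under 0.05 that comparison held 0 of the 10 genes and 1518 of all 17710. The differences of the 4 genes above were small, at -0.10 for PIM1, -0.08 for STAT3, -0.04 for IL6ST and -0.12 for SOCS2. Their 95% intervals were -0.53 to 0.33, -0.38 to 0.22, -0.28 to 0.20 and -0.49 to 0.24 log2 units, so differences up to those sizes were not excluded. PIM2 was lower in all PIM-Pd arrays than in all Pd arrays, by -0.27 ± 0.16 log2 units, with an adjusted p of 0.672. PIM-Pd cells were exposed for 10 h and Pd cells for 15 h.

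The third question was whether adding Pd to PIM447 changed them. In PIM-Pd against PIM, 4 of the 10 genes passed, where 5.66% of all genes did. PIM1 was 2.61-fold lower (log2 difference -1.38 ± 0.20, adjusted p = 0.000764), and 0.271% of all genes had a larger absolute difference. IL6ST was 1.61-fold higher (adjusted p = 0.00191), SOCS2 was 1.64-fold higher (adjusted p = 0.023) and STAT3 was 1.44-fold higher (adjusted p = 0.0385). The STAT3 call did not hold when any 1 of the 6 PIM and PIM-Pd arrays was left out, with adjusted p between 0.0557 and 0.134. The SOCS2 call did not hold without PIM replicate 1 or PIM-Pd replicate 1 or 3, with adjusted p between 0.063 and 0.0822.

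The levels of the 4 genes that moved fell into a lower and an upper pair of groups. For PIM1 the order of the means was PIM, Control, Pd and PIM-Pd, from 8.87 down to 7.49. For STAT3 it was Pd, PIM-Pd, PIM and Control, from 6.67 down to 5.71. For IL6ST and SOCS2 it was Pd, PIM-Pd, Control and PIM, from 9.97 to 9.25 and from 6.97 to 6.13. Neighbours within a pair did not pass the test in any of these orders. The remaining comparison, Pd against PIM, was added later. In it 4 of the 10 genes passed, where 3.39% of all genes did: PIM1 (log2 difference -1.28 ± 0.20), IL6ST (0.72 ± 0.11), SOCS2 (0.84 ± 0.17) and STAT3 (0.61 ± 0.14). For the other 6 genes no pair of groups passed the test.

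The change with all 3 drugs was also compared with the sum of the PIM and Pd changes on the log2 scale. None of the 10 genes departed from that sum at an adjusted p under 0.05, where 0.0169% of all genes did. At an unadjusted p under 0.05 there was 1 of the 10 genes, STAT3, and 1033 of all 17710. For STAT3 the sum was 1.32 and the PIM-Pd change was 0.88, a departure of -0.44 ± 0.20 with an adjusted p of 0.842. For PIM2 the sum was 0.40 and the PIM-Pd change was -0.06, a departure of -0.46 ± 0.23 with an adjusted p of 0.876. For PIM1 the departure was -0.39 ± 0.28. The shortest exposure was that of PIM-Pd, so these departures cannot be told apart from time.

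**Figure D4:**
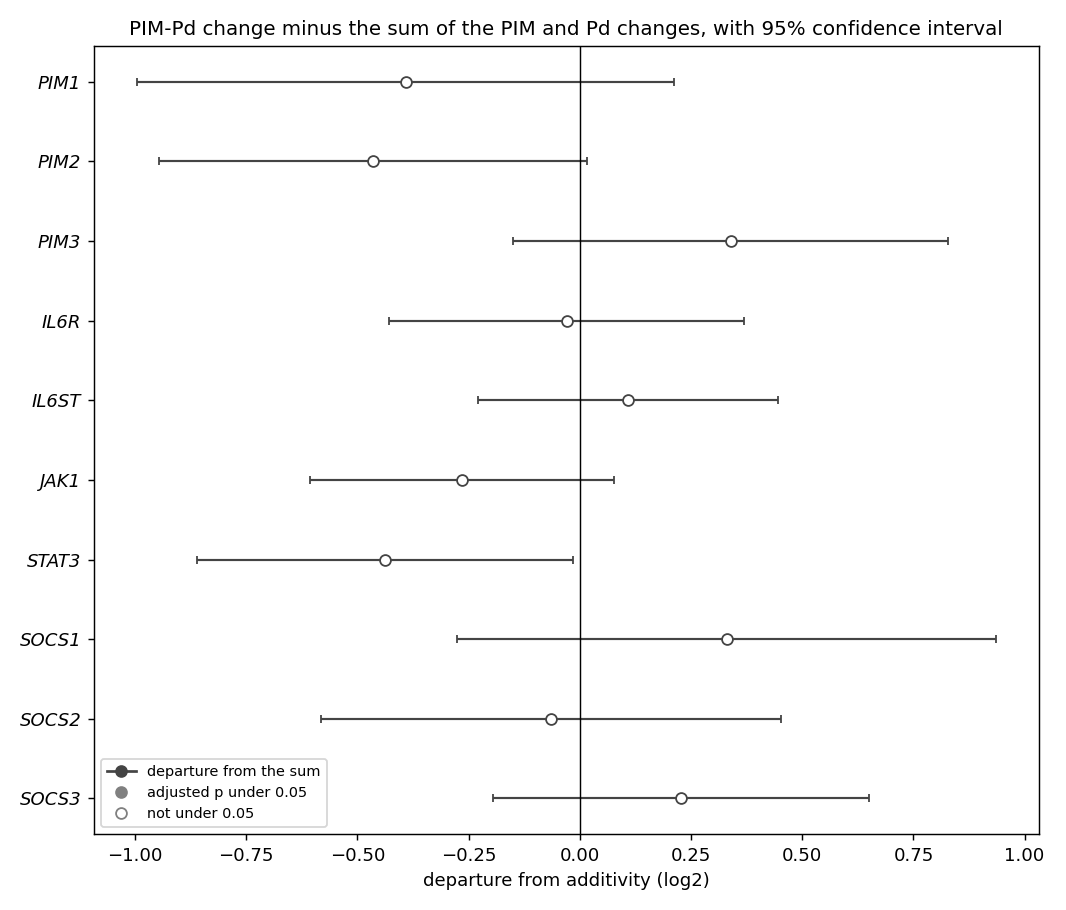
Departure of the PIM-Pd log2 change from the sum of the PIM and Pd changes (x axis) for the 10 genes, with 95% confidence intervals from limma. All points are open (adjusted p not under 0.05), and STAT3, at -0.44, is the one whose interval leaves out 0.

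Other genes of the pathway came from lists of STAT and receptor genes, negative regulators, STAT3 targets and PIM substrates. The value table holds no symbols, and the symbols used here cover only genes that the study had selected on these arrays. Values are therefore given for named genes with no count over a list. Among other STAT genes, STAT2, which carries type I interferon signals, was 2.04-fold higher in Pd (adjusted p = 0.000813) and 2.43-fold higher in PIM-Pd (adjusted p = 0.000116). STAT4, which acts downstream of interleukin-12, was 1.79-fold and 2.12-fold higher (adjusted p = 0.0039 and 0.000397). STAT4 was dim in Control, at 4.32 to 4.80 and below the array median on all 3 arrays, so the size of these folds is uncertain. Among the negative regulators, SOCS5 was 1.69-fold higher in Pd (adjusted p = 0.00427), and in PIM-Pd its log2 difference from Control was 0.12 ± 0.14. The SOCS5 difference between PIM-Pd and Pd had an adjusted p of 0.123. PTPN6 (SHP-1), a phosphatase that dampens JAK signalling, differed by 0.74 ± 0.21 in Pd and 0.70 ± 0.21 in PIM-Pd, with adjusted p of 0.0599 and 0.0512. With the replicate number as a block these were 0.0254 and 0.0214. SOCS4, the other negative regulator that could be named, went the other way. It differed by -0.18 ± 0.19 in Pd and -0.51 ± 0.19 in PIM-Pd, with limma adjusted p of 0.741 and 0.121. With the block the SOCS4 value in PIM-Pd was 0.0202.

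Of 20 listed STAT3 targets, 6 could be named, all from genes that the study had selected on these arrays. That they moved is therefore no independent evidence about STAT3 targets, and they went in both directions. MCL1, an anti-apoptotic protein on which myeloma cells depend, was 1.82-fold higher in PIM-Pd (log2 change 0.87 ± 0.13, adjusted p = 0.000728), and in Pd the difference was 0.47 ± 0.13 with an adjusted p of 0.052. IRF1, an interferon-response factor, was 1.43-fold higher in Pd (adjusted p = 0.0188), and in PIM-Pd its difference was 0.38 ± 0.12 with an adjusted p of 0.0611, or 0.0495 with the replicate block. MYC, a transcription factor that drives growth, was 1.80-fold lower in PIM-Pd (-0.85 ± 0.15, adjusted p = 0.00204), and in Pd its difference was -0.44 ± 0.15 with an adjusted p of 0.109, or 0.0475 with the replicate block. CCND1, encoding cyclin D1, was 1.62-fold lower in Pd and 1.54-fold lower in PIM-Pd (adjusted p = 0.0135 and 0.0172). CCND1 was dim in Pd and PIM-Pd, at 4.24 to 4.65 and below the array median on every array. In Control it lay at 4.94 to 5.17, so the size of these folds is uncertain. VEGFA, which drives vessel growth, was 1.61-fold lower in PIM-Pd (adjusted p = 0.0269). The differences between Pd and PIM-Pd did not pass the test for any of these 5 genes, with adjusted p between 0.384 and 0.93. TIMP1, the other target that could be named, differed by 0.56 ± 0.23 in Pd and 0.33 ± 0.23 in PIM-Pd. Its limma adjusted p was 0.204 and 0.494, and with the replicate block the Pd value was 0.0147.

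Of 20 listed genes for substrates of PIM kinases, 8 could be named, MYC among them, again only from genes that the study had selected. These also went both ways. MAP3K5 (ASK1), a stress kinase that PIM1 is known to restrain, was 3.08-fold higher in Pd and 3.48-fold higher in PIM-Pd (adjusted p = 8.26e-05 and 2.89e-05). CXCR4, the receptor that holds myeloma cells in the marrow, was 1.71-fold and 2.09-fold higher (adjusted p = 0.00822 and 0.00059). CDKN1A (p21), an inhibitor of cyclin-dependent kinases, was 1.48-fold and 1.54-fold higher (adjusted p = 0.0393 and 0.014). CDC25A, a phosphatase that opens the way into S phase, was 2.01-fold lower in PIM-Pd (adjusted p = 0.00709), and in Pd its adjusted p was 0.12, or 0.0421 with the replicate block. EIF4EBP1 (4E-BP1), the repressor of cap-dependent translation, was 1.80-fold lower in PIM-Pd (adjusted p = 0.00329), and in Pd its adjusted p was 0.0753, or 0.0338 with the replicate block. CDC25C differed by 0.58 ± 0.19 in Pd and 0.42 ± 0.19 in PIM-Pd, with limma adjusted p of 0.111 and 0.237. With the replicate block the CDC25C value in Pd was 0.0367. FOXO1 differed by 0.54 ± 0.18 in Pd and 0.47 ± 0.18 in PIM-Pd, with adjusted p of 0.107 and 0.128. The arrays measure RNA, and phosphorylation of these proteins was not measured by them.

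Genes with the closest profile were sought for the 4 genes with the widest range of group means. Likeness was the root mean square difference over the 12 arrays, with every gene set against its own Control mean. Closest to PIM1 were NAV1 (0.24 log2 units), GREB1 (0.26) and ENSG00000226025_at (0.28), the last without a symbol here. Closest to STAT3 were CD53 (0.16), RNF19B (0.17) and CTSS (0.18). GPRC5D (0.16), a plasma cell surface protein, was the closest to SOCS2, followed by NHSL1 (0.18) and BIN2 (0.18). Closest to IL6ST were SPTBN1 (0.10), NHSL1 (0.11) and CD99L2 (0.11), so NHSL1 stood near both SOCS2 and IL6ST. The GPRC5D mean was 0.60 log2 units above Control in Pd and 0.66 in PIM-Pd, next to 0.78 and 0.66 for SOCS2.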

How the data were processed

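RNA of 12 MM.1S cultures was hybridised to Affymetrix Clariom S human arrays. The deposited values are log2 expression, 1 per Ensembl gene: the authors applied RMA (background correction, quantile normalization and probe summarisation) in oligo 1.44.0 under R 3.5.0 with a custom gene definition file. RMA can compress fold changes of weakly expressed genes. No genome build is given in the sources used here. All 17710 genes were tested with limma 3.58.1 in R 4.3.3 (4 groups of 3, 1 shared variance, Benjamini-Hochberg adjustment, threshold 0.05), after a check on simulated data. The methods name SAM and state no pairing, so the fit had no block. The labels call the replicate numbers pairs. Deviations of same-numbered arrays correlated between -0.10 and 0.30 over 18 array pairs, and 12 of the 18 correlated best with their own number. The own number is 1 of 3 candidates, so some best matches arise without pairing. Deviations within a group of 3 sum to 0, so these correlations depend on each other. The count is therefore no test of pairing. The genes and lists were chosen with earlier results of these data known. Symbols beyond the 10 genes were taken, as names only, from the study's own lists of changed genes, so B cell, myeloid and stromal markers have no value here. The remaining comparison, Pd against PIM, was chosen after seeing the data. Named genes were the 10, the called list genes with the largest change (up to 4 in each direction a list) and the 3 most alike genes. PTPN6, SOCS4, TIMP1, CDC25C and FOXO1 were named after their values were seen. The alternatives tried are listed in the closing section. The number of arrays limits the precision.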

Additional observations from a re-analysis of the deposited data

How the results depend on the processing

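The counts of the 10 genes that passed were recomputed under each alternative. With the replicate number as a block they were 0, 4 and 4 for PIM, Pd and PIM-Pd against Control, 0 for PIM-Pd against Pd, 4 for PIM-Pd against PIM and 0 for the departure from the sum, so the pairing changed no call of these genes. For the differences of other genes given in the report, the blocked value stands beside each call that it changed. Requiring at least a 2-fold change as well left 0 genes in Pd against Control, 1 in PIM-Pd against Control and 1 in PIM-Pd against PIM. With only the compared groups in the fit, PIM-Pd against PIM held 2 genes. Leaving out 1 array at a time gave 3 to 4 genes in Pd against Control, 3 to 4 in PIM-Pd against Control, 2 to 3 in PIM-Pd against PIM, and 0 in the other comparisons. The count in PIM-Pd against PIM was 2 without PIM replicate 1, PIM-Pd replicate 1 or PIM-Pd replicate 3. The STAT3 difference in that comparison also missed the threshold with a trended prior (adjusted p = 0.0541), array weights (0.0683) and only the compared groups (0.0587), and SOCS2 with the last (0.102). The cause was not tested. Of 818 recomputed log2 changes, 758 kept their direction and side of the threshold, 21 missed it and 39 uncalled values changed sign; none that passed changed sign. The filter on dim genes left out SOCS1 and SOCS3.

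The count over all genes was also recomputed. For Pd against Control it was 960, 1516 with array weights, 191 with the 2-fold limit and 497 to 720 with 1 array left out (497 without Pd replicate 3, 520 without Pd replicate 1, 522 without Control replicate 1 and 608 without Control replicate 3). For PIM-Pd against Control it was 1671, 255 and 1096 to 1435 (1096 without Control replicate 3). For PIM-Pd against PIM it was 1003, 173, 455 with only the compared groups and 648 to 901 (648 without PIM-Pd replicate 3). For PIM-Pd against Pd it was 14, 26 with a trended prior, 8 after quantile normalization, 1 with the 2-fold limit, 1 with only the compared groups and 2 to 15 with 1 array left out (4, 4 and 2 without Pd replicate 1, 2 and 3, and 7 and 3 without PIM-Pd replicate 1 and 3). For the departure from the sum it was 3, and 0 to 3 with 1 array left out, with 3 only without PIM replicate 2 or PIM-Pd replicate 2.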

Other observations

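PIM2 and IL6R ordered the replicates alike in untreated and PIM447-treated cells. Replicate 1 was the lowest of its group for both genes: PIM2 stood at 10.64 in Control and 10.69 in PIM, and IL6R at 9.57 and 9.48. Replicate 2 was the highest of its group for both, at 11.02 and 11.39 for PIM2 and 9.90 and 10.01 for IL6R. In Pd, replicate 1 was the highest for both genes, at 11.13 for PIM2 and 9.96 for IL6R. The other members did not keep their order between Control and PIM. SOCS1, for example, was at 4.26, 4.57 and 5.01 in Control and at 4.77, 4.80 and 4.22 in PIM. This comparison of orders was not planned, and the share of all genes that keep their order was not computed. With 3 replicates an order can repeat without pairing, so no trait particular to PIM2 and IL6R is shown. Over all genes, the deviations of same-numbered Control and PIM arrays correlated at 0.30, 0.22 and 0.21, and those of Control and Pd arrays at 0.01, -0.10 and 0.05. For the remaining pairs of groups the correlations lay between -0.10 and 0.25, both ends from PIM with PIM-Pd. These correlations are across genes, which are not independent replicates, and their source was not tested.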
